A study of Mus musculus with 11 samples.

Results

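The miR-290 to miR-295 cluster is a group of mouse microRNA (miRNA) hairpins that lie side by side on chromosome 7. Its 5 arms studied here, miR-291a-3p, miR-291a-5p, miR-293-3p, miR-294-3p and miR-295-3p, were chosen by name, as 5 of the 2304 rows of a small RNA read table (1592 miRNA rows and 712 endo-siRNA rows). They were followed through all 11 libraries of the series. Another 12 rows of the table carry names of the same cluster and are described beside them.

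The cluster is known as the most abundant miRNA group of mouse embryonic stem cells, where its 3′ arms with an AAGUGC seed promote the passage from G1 to S phase. A miRNA binds its targets mainly through its seed, bases 2 to 8 counted from the 5′ end. Drosha cuts the hairpin from the primary transcript and Dicer then cuts the hairpin into the arms. Most miRNAs, those of this cluster included, need both enzymes, whereas endo-siRNAs need Dicer only.

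The libraries came from adult C57BL/6 mice. Cauda epididymal sperm were taken from wild-type mice (WT, 2 libraries), Dicer conditional knockout mice (Dicer cKO, 2 libraries) and Drosha conditional knockout mice (Drosha cKO, 3 libraries). The knockouts were made in the germ line with floxed alleles and Cre, and the labels name neither the Cre line nor its promoter. One library each came from WT oocytes, flushed from oviducts after superovulation, and from embryos at the 2-pronuclei (2PN) stage that had been made by injecting WT, Dicer cKO or Drosha cKO sperm into oocytes (ICSI). Whether the replicate libraries are of different animals is not stated in the labels. The p-values below therefore measure the spread between these libraries alone, and this spread may be technical.

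Depth was low. WT sperm had 73377 and 278890 reads on listed rows, and Dicer cKO sperm 122989 and 108141. Replicates 1, 2 and 3 of Drosha cKO sperm had 100934, 12003 and 15921. The oocyte and 2PN libraries had only 2951 to 8967. Levels are given as CPM, counts scaled to 1000000 listed reads, and where it matters also as RPM, in which the authors divided by a larger total of each library (412523 to 3743577 reads). Of that total, listed reads made up 2.16% and 10.1% for WT sperm. The share was 4.43% and 7.01% for Dicer cKO sperm and 2.11% to 2.91% for Drosha cKO sperm. For the oocyte and the 2PN embryos it was 0.196% to 0.737%. The 2 scales therefore differ most between sperm and the other libraries. A count of 3 reads serves as the floor: no fold is given where both groups are at or under it, and a group at 0 reads is set to it, which gives a bound. Groups with 1 to 3 reads are given as a ratio with its interval. The floor equals 10.8 to 249.9 CPM in sperm and 334.6 to 1016.6 CPM in oocyte and 2PN libraries. Intervals are exact 95% intervals and cover counting error only.

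Replicate sperm libraries differed beyond sampling noise (chi-square per degree of freedom 5.74 to 42.0), so none was taken as a mere re-sequencing of another. This spread does not tell separate animals from technical repeats. The table holds small RNAs only, so the targeted genes themselves give no check of the knockout labels.

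The 5 mature sequences are shown because their seeds separate them into 3 groups. Capitals mark the seed, and the sequences were taken from RefSeq on GRCm38.p6, in which all 5 matched by name.
mmu-miR-291a-3p: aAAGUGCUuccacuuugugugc
mmu-miR-294-3p: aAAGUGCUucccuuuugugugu
mmu-miR-295-3p: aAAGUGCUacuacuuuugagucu
mmu-miR-293-3p: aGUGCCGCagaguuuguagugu
mmu-miR-291a-5p: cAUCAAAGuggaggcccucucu

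miR-291a-3p, miR-294-3p and miR-295-3p share the seed AAGUGCU. miR-293-3p has the seed GUGCCGC, so it does not carry the AAGUGC motif in that window, and miR-291a-5p has the seed AUCAAAG. The motif AAGUGC stood in bases 2 to 8 of 16 of the 1679 mouse mature miRNAs searched (0.953%). This set left out the RefSeq entries of a chromosome other than that of the cluster. Aligned from the 5′ end, miR-291a-3p and miR-294-3p differed at 3 of 22 bases and miR-291a-3p and miR-295-3p at 7 of 22. Reads of such close sequences can be split between rows, and the sources used here do not state how the authors assigned them.

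The hairpins lie within 2216 bp at chr7:3218626-3220841 (GRCm38), in the order Mir290a, Mir291a, Mir292, Mir291b, Mir293, Mir294 and Mir295 on the plus strand. Mir290b and Mir292b lie on the minus strand inside Mir290a and Mir292. The span overlaps the protein-coding gene Nlrp12 (3218643 to 3249771) and the long non-coding RNA D7Ertd143e (3218784 to 3221015). Mir290a starts and ends before D7Ertd143e begins. Placement in exons or introns was not analysed here.

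In unfertilised oocytes the cluster stood among the most abundant miRNAs. miR-294-3p had 51 reads (9222 CPM, interval 6874 to 12108) and ranked 14th of 299 rows with reads. miR-293-3p had 47 reads (8499 CPM, interval 6251 to 11286) and ranked 15th. These 2 arms, which have different seeds, did not differ beyond counting error and made up 89.1% of the 110 reads of the 5 arms. miR-295-3p had 7 reads, miR-291a-5p had 3 and miR-291a-3p had 2, so the last pair stood at or under the floor. The 5 arms together were 1.99% of listed reads.

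**Figure D1:**
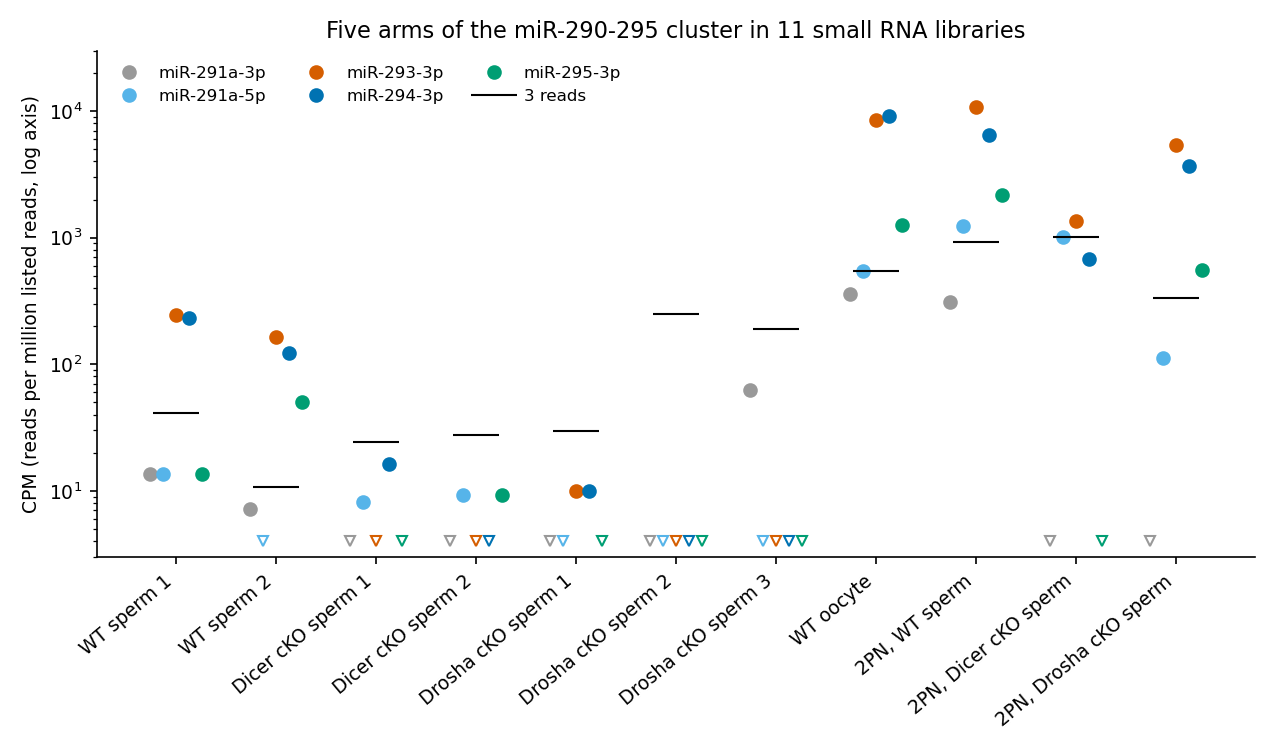
Levels of the 5 arms in each of the 11 libraries, in CPM on a log axis, with filled circles for arms with reads, open triangles at the bottom for arms with 0 reads, and a black bar at the level of 3 reads in that library. miR-293-3p and miR-294-3p lie above the bar in the oocyte, in both WT sperm libraries and in the 2PN libraries from WT and Drosha cKO sperm, and no arm reaches it in any of the 5 cKO sperm libraries.

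WT sperm carried the same 2 leading arms at a far lower share of listed reads. miR-293-3p had 18 reads in replicate 1 (245 CPM) and 46 in replicate 2 (165 CPM). miR-294-3p had 17 and 34 reads (232 and 122 CPM). Together they gave 92.1% and 83.3% of the reads of the 5 arms, and they ranked only 190th and 194th of 1377 rows in replicate 1 and 200th and 220th of 1108 in replicate 2.

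The minor arms were near the limit of detection in WT sperm. miR-295-3p had 1 and 14 reads (13.6 and 50.2 CPM), and the interval of the single read, 0.345 to 75.9 CPM, covers the value of replicate 2. miR-291a-3p had 1 and 2 reads and miR-291a-5p had 1 and 0. Summed, the 5 arms had 38 reads in replicate 1 and 96 in replicate 2.

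How far the oocyte stood above WT sperm depended on the denominator. Per listed read, the summed arms were 52.3-fold higher in the oocyte library than in the pooled WT sperm libraries (interval 40.3 to 67.8). Per read of the authors' total, the same reads gave 4.48-fold (3.45 to 5.81). The direction held on both scales.

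Among single arms, the ratio per listed read was 46.8-fold for miR-293-3p, 63.7-fold for miR-294-3p and 29.7-fold for miR-295-3p. On the authors' total it was 4.01-fold, 5.46-fold and 2.55-fold, the last with an interval of 0.879 to 6.64 that includes no difference. Of the 401 rows with at least 10 reads in either group, 8.23% were at least 4-fold higher in the oocyte per listed read, and all 3 of the arms tested were among them. The other 2 arms did not reach 10 reads. Only rows with more than 3 oocyte reads could be called, and a row with 3 reads ranked 84th there. Most of the 401 rows therefore could not be called, so 3 of 3 arms is a description and no support. With 1 oocyte library there is no replicate check and no test.

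The replicate WT sperm libraries changed places between the scales. The summed arms were 518 and 344 CPM in replicates 1 and 2, but 11.2 and 34.6 RPM. The share of listed reads in the authors' total differed between these libraries in the same direction as the RPM, as given above.

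The order of the libraries by the summed level was as follows. In CPM the 2PN library from WT sperm (20968, interval 16319 to 26507) and the oocyte (19892, interval 16376 to 23926) were highest and overlapped. The 2PN library from Drosha cKO sperm came next (9702, interval 7778 to 11954), then the 2PN library from Dicer cKO sperm (3050, interval 1395 to 5782), and their intervals did not overlap. Below them came WT sperm (344 and 518), and the cKO sperm libraries lay at 0 to 62.8.

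In RPM, the oocyte (97.2), the 2PN library from WT sperm (78.4) and the 2PN library from Drosha cKO sperm (71.5) had overlapping intervals at the top. The 2PN library from Dicer cKO sperm fell to 5.99 RPM (interval 2.74 to 11.4), which was below WT sperm replicate 2 (34.6, interval 28.0 to 42.3) and overlapped replicate 1 (11.2, interval 7.90 to 15.3). The cKO sperm libraries lay at 0 to 1.33 RPM.

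**Figure D2:**
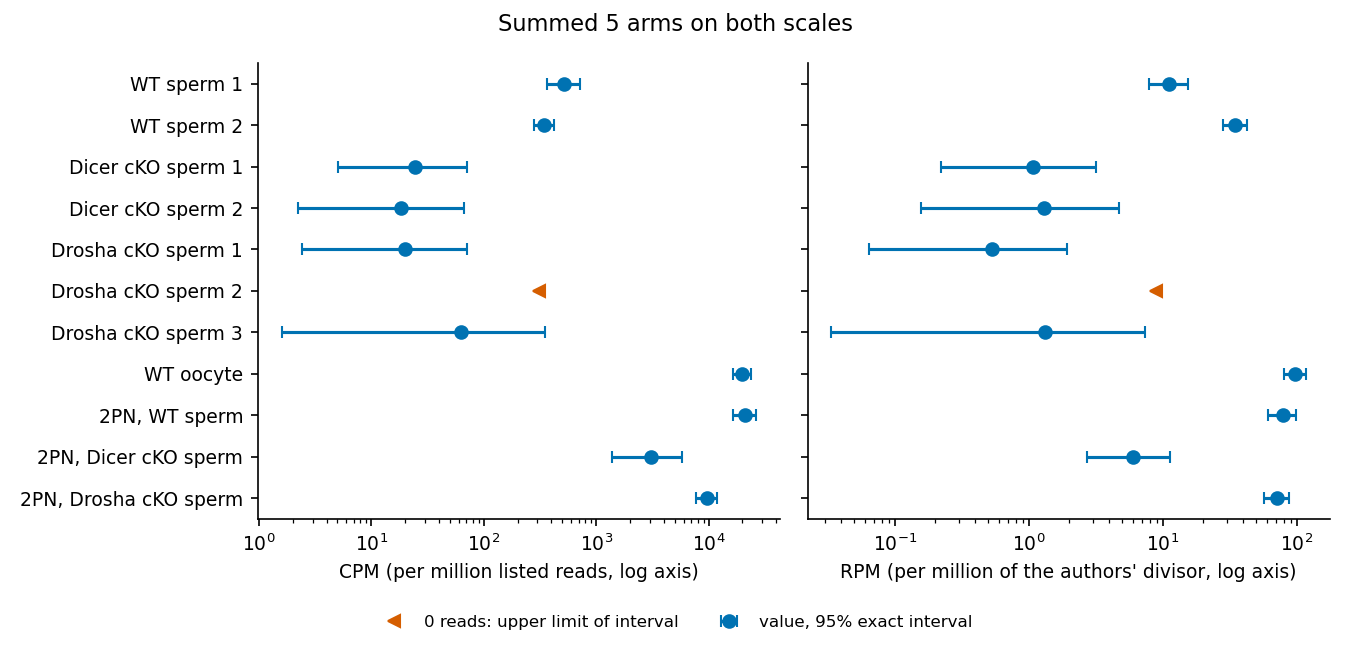
Summed level of the 5 arms in each library, in CPM on the left and in RPM on the right, both on log axes, with exact 95% intervals for counting error and a triangle at the upper limit for the library with 0 reads. The oocyte lies 52.3-fold above WT sperm in CPM and 4.48-fold in RPM, and the 2PN library from Dicer cKO sperm lies above WT sperm on the left and below WT sperm 2 on the right.

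The comparison of Dicer cKO with WT sperm asks which sperm small RNAs depend on Dicer. The cluster was nearly absent from Dicer cKO sperm: the 5 arms had 3 and 2 reads in its libraries, where the lower of the WT shares would give 42.3 and 37.2. miR-293-3p had 0 reads in both, against 18 and 46 in WT. miR-294-3p had 2 and 0 reads, against 17 and 34. For both arms every Dicer cKO library lay below every WT library.

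Both of these arms fell in the test across all rows (edgeR quasi-likelihood, TMM scaling, Benjamini-Hochberg adjustment over 335 rows, all 7 sperm libraries in the fit). In that test 31.0% of rows were called lower, so 2 of 2 arms called is to be read against a large background. miR-294-3p had a log2 change of -4.73 (SE 1.11, edgeR adjusted p = 0.00176), and its raw reads give a 16.7-fold lower share of listed reads (interval 4.40 to 142). miR-293-3p was at least 14.0-fold lower, with 3 reads over the group as the floor (edgeR adjusted p = 0.000354). The other 3 arms did not pass the filter on low counts, which miR-293-3p and miR-294-3p passed through their WT reads. Leaving out replicate 2 of Dicer cKO ended the call for miR-294-3p (log2 change -4.05, edgeR adjusted p = 0.0554).

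The minor arms had too few reads for a verdict. miR-295-3p had 0 and 1 reads in Dicer cKO sperm, against 1 and 14 in WT, a 9.84-fold lower share (interval 1.51 to 414), and its groups touched at 1 read. miR-291a-3p had 0 reads in both Dicer cKO libraries. miR-291a-5p was the exception, with 1 read in each Dicer cKO library and 1 and 0 reads in WT. In a fit without the filter (2186 rows), edgeR adjusted p values were 0.588 for miR-295-3p, 0.764 for miR-291a-3p and 0.845 for miR-291a-5p.

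The 12 other cluster rows together had 6 reads in Dicer cKO sperm and 31 in WT, a 3.39-fold lower share (interval 1.39 to 9.94). Of these 6 reads, 4 were of miR-292-3p, which had 1 and 3 reads in Dicer cKO sperm and 7 and 3 in WT.

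Drosha cKO sperm were compared with WT sperm in the same fit. miR-293-3p had 1, 0 and 0 reads in the 3 libraries and miR-294-3p also had 1, 0 and 0. The fitted log2 change was -5.33 for miR-293-3p (SE 1.16, edgeR adjusted p = 0.00116) and -5.06 for miR-294-3p (SE 1.25, edgeR adjusted p = 0.00239). Both arms were called, where 33.1% of all rows tested were called lower. They passed the filter through their WT reads, so this count is a description and no support. Every Drosha cKO library lay below every WT library for both arms. However, the exact interval for 0 reads reaches 307 CPM in replicate 2 and 232 CPM in replicate 3. Both limits are above the values of these arms in WT replicate 2. Without Drosha cKO replicates 2 and 3, an alternative added after seeing the data, both arms were still called, with the lone library assumed to vary like the other groups.

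Read depth set how much each Drosha cKO library could show. At the lower WT share, replicates 2 and 3 would hold only 4.13 and 5.48 reads of the 5 arms, and held 0 and 1. Replicate 1 would hold 34.7 and held 2. Replicate 1 thus holds most of the depth on which the comparison rests. Summed over the 3 libraries, the arms had 3 reads, a 16.3-fold lower share of listed reads than WT (interval 5.47 to 80.2) and a 35.5-fold lower share of the authors' total (interval 11.9 to 174).

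miR-295-3p had 0 reads in all 3 Drosha cKO libraries, at least 1.83-fold lower than WT with the floor over the group. miR-291a-5p also had 0 reads in all 3, and miR-291a-3p had a single read, in replicate 3. The fit without the filter gave edgeR adjusted p values of 0.204 for miR-295-3p, 0.789 for miR-291a-5p and 0.859 for miR-291a-3p. The other 12 rows of the cluster had 0 reads in Drosha cKO sperm, at least 3.78-fold lower than the 31 reads in WT.

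**Figure D3:**
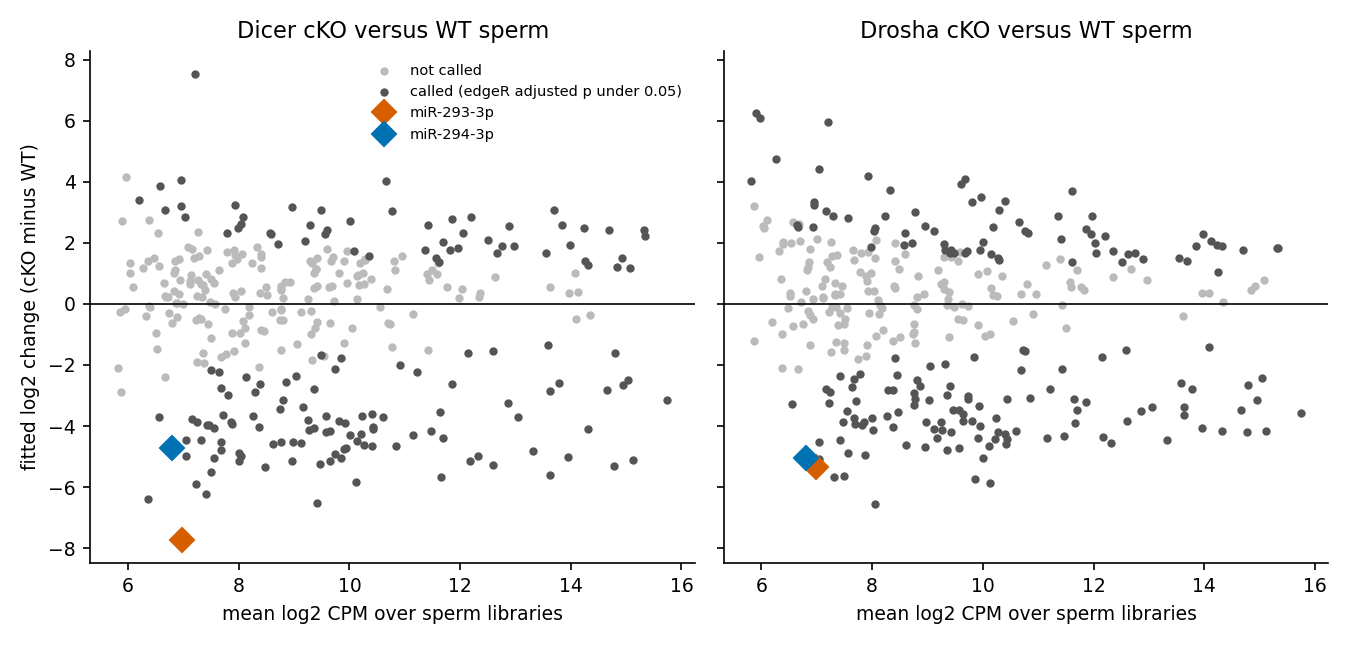
Fitted log2 change in Dicer cKO (left) and Drosha cKO sperm (right) against WT sperm, plotted over the mean log2 CPM for the 335 rows tested, with called rows dark and miR-293-3p and miR-294-3p as diamonds. Both arms lie low on the abundance axis and far below 0. miR-293-3p had 0 reads in Dicer cKO sperm, so its position on the left depends on the prior count and is no measured fold.

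Dicer cKO and Drosha cKO sperm were also compared directly. Neither arm was called, with an edgeR log2 change of -0.34 for miR-294-3p (SE 1.91, adjusted p = 0.939) and an adjusted p of 0.440 for miR-293-3p. No row at all was called by edgeR (0.00% of 335), with 65 at an unadjusted p under 0.05 and 18 called by DESeq2. With 5 reads in one group and 3 in the other, a difference of several-fold between the knockouts was not detectable for this cluster, and the sign for miR-294-3p turned under 2 alternatives. The comparisons with WT share the same WT libraries.

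Markers of cell types moved with the knockouts, and their part in the fall of the cluster was not tested. The 7 male germ cell miRNAs made up 18.1% and 16.3% of the listed reads of WT sperm. They summed to 0.824% and 0.844% after loss of Dicer and to 1.41% to 2.46% after loss of Drosha. All 7 of these fell in both comparisons, and none was at 0 in any sperm library. The 5 epithelial miRNAs, of the miR-200 family, summed to 1.57% and 1.81% in the WT libraries, against 13.0% and 16.0% without Dicer and 11.0% to 13.9% without Drosha. All 5 rose in both.

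The 5 blood miRNAs summed to 0.511% and 0.441% in the WT libraries, against 4.98% and 4.80% without Dicer and 2.13% to 2.44% without Drosha. In each comparison 4 of 5 were called higher by edgeR. The 5 stromal miRNAs summed to 0.795% and 0.315% in the WT libraries. They summed to 2.61% and 1.87% without Dicer and to 1.08% to 1.69% without Drosha. Of these, 2 of 5 were called higher without Dicer and 0 of 5 without Drosha. In bulk samples fewer cells of a type and less RNA per cell cannot be told apart.

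After fertilisation with WT sperm, the summed arms stayed at the oocyte's level within counting error. The ratio of the 2PN library to the oocyte library was 1.05 per listed read (interval 0.767 to 1.44) and 0.806 on the authors' total (0.587 to 1.10). miR-293-3p had 35 reads and a ratio of 1.27 (interval 0.796 to 2.01). miR-294-3p had 21 reads and a ratio of 0.702 (0.401 to 1.19) per listed read, which became 0.537 (0.307 to 0.909) on the authors' total. Both ratios lay within 2-fold per listed read, where 9.30% of 43 rows were at least 2-fold lower and 23.3% at least 2-fold higher.

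The other rows of the cluster stood higher in the 2PN library than in the oocyte. Their 89 reads against 79 gave a ratio of 1.92 (interval 1.40 to 2.63) per listed read and 1.47 (1.07 to 2.02) on the authors' total. The most abundant of them, miR-292a-3p, had 49 reads and ranked 9th of 249 rows, ahead of every one of the 5 arms. In the oocyte it had 41 reads and ranked 16th.

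The comparison of 2PN embryos made with cKO and with WT sperm asks what the sperm's loss of small RNAs leaves in the zygote. In the embryos from Dicer cKO sperm the cluster was low. miR-293-3p had 4 reads, against 35 in the embryos from WT sperm at a like depth (2951 and 3243 listed reads), a 7.96-fold lower share (interval 2.85 to 30.8). miR-294-3p had 2 reads against 21, a 9.55-fold lower share (interval 2.34 to 84.1). Among 36 rows with at least 10 reads in either library, the median log2 ratio was -0.67 per listed read, with counts under 3 set to 3. Of these rows 25.0% were at least 4-fold lower, and both arms tested were among them. They reached 10 reads only in the library from WT sperm, so this count is a description and no support.

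Of the minor arms, miR-295-3p had 0 reads against 7, at least 2.12-fold lower. miR-291a-5p had 3 reads against 4 and miR-291a-3p 0 against 1. So the count of miR-291a-5p, a 5′ arm, was close to that from WT sperm, though at the floor of 3 reads.

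Summed, the 5 arms were 6.88-fold lower per listed read (interval 3.42 to 15.7) and 13.1-fold lower on the authors' total (6.51 to 29.9). The other cluster rows had 7 reads against 89, 11.6-fold lower (5.39 to 29.6). miR-292a-3p had 4 reads against 49, 11.1-fold lower (4.09 to 42.5). miR-290a-5p had 0 reads against 18, at least 5.46-fold lower. With 1 library in each group these values compare libraries, not conditions.

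The same embryos were also below the oocyte: the summed arms were 6.52-fold lower per listed read than in the oocyte library (interval 3.31 to 14.6). All 7 male germ cell markers were at 0 in the 2PN library from Dicer cKO sperm, and they summed to at most 0.072% of listed reads in the oocyte and the other 2PN libraries. Epithelial markers summed to at most 0.054% and blood markers to at most 0.018% in the oocyte and 2PN libraries. Stromal markers summed to 0.108% to 0.401%, with 2 or 3 of 5 at 0.

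The 2PN library from Drosha cKO sperm held more of the cluster than that from Dicer cKO sperm, with 1 library of each. miR-293-3p had 48 reads and miR-294-3p had 33, in a library of 8967 listed reads. Against the 2PN library from WT sperm, miR-293-3p was 2.02-fold lower per listed read (interval 1.27 to 3.18) and miR-294-3p was 1.76-fold lower (0.968 to 3.13). At least 2-fold lower were 36.7% of the 49 rows tested, and 1 of the 2 arms.

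That difference from WT depended on the scale. The sum of the 5 arms was 2.16-fold lower per listed read (interval 1.55 to 3.003) but 1.10-fold lower on the authors' total, with an interval of 0.786 to 1.52 that includes no difference. miR-295-3p had 5 reads against 7, miR-291a-5p had 1 against 4 and miR-291a-3p had 0 against 1.

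Within the cluster the arms were not equally low in the 2PN library from Drosha cKO sperm. The 12 other rows were 4.73-fold lower per listed read (interval 3.32 to 6.80) and 2.40-fold lower on the authors' total (1.69 to 3.45). miR-290a-5p had 2 reads against 18, 24.9-fold lower per listed read (5.96 to 221) and 12.6-fold lower on the authors' total (3.02 to 112). miR-292a-3p had 39 reads against 49, 3.47-fold lower per listed read (2.24 to 5.43).

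Set directly against each other, the 2PN library from Dicer cKO sperm had a 3.18-fold lower share of the 5 arms than that from Drosha cKO sperm per listed read (interval 1.60 to 7.19) and an 11.9-fold lower share on the authors' total (6.01 to 27.0). Both 2PN comparisons with WT use the same 2PN library from WT sperm.

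**Figure D4:**
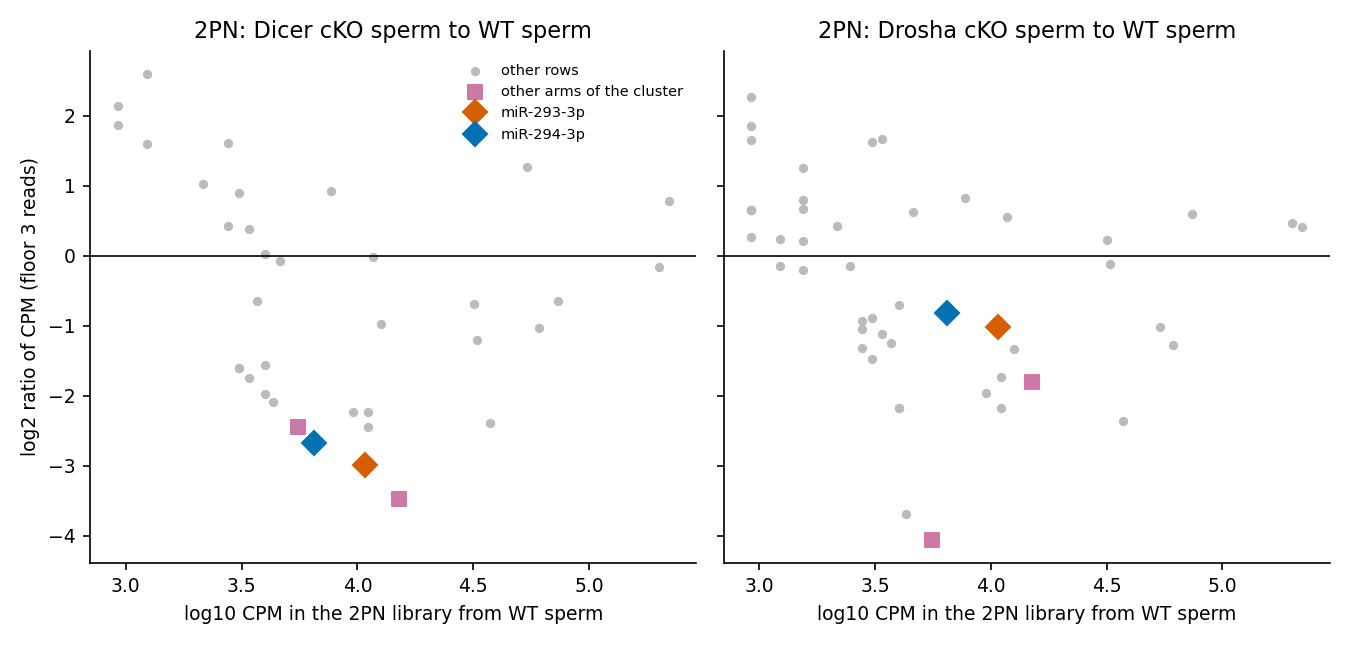
log2 ratio of CPM in the 2PN library from Dicer cKO (left) or Drosha cKO sperm (right) to that from WT sperm, over the log10 CPM in the latter, for rows with at least 10 reads in either library and counts under 3 set to 3. miR-293-3p and miR-294-3p (diamonds) and 2 other arms of the cluster, miR-292a-3p and miR-290a-5p (squares), lie below 0 in both panels; miR-294-3p at left and miR-290a-5p in both panels were set to 3 reads. Where they had 2 reads, miR-294-3p at left and miR-290a-5p at right, they lie nearer 0 than the ratios in the text.

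The makeup of the cluster along the locus can be read from the reads per hairpin. In the oocyte, Mir294 gave 62 of 189 cluster reads, Mir293 gave 48, Mir292 gave 42 and Mir290a gave 14. In the 2PN library from WT sperm, Mir292 gave the most, 52 of 157. The 3′ arms held 79.4% of cluster reads in the oocyte, 75.8% in the 2PN library from WT sperm and 91.4% in that from Drosha cKO sperm. In WT sperm they held 89.8% and 87.1%.

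The minus-strand hairpins gave few reads. miR-290b-3p had 2 reads in the oocyte and 6, 0 and 2 in the 2PN libraries made with sperm of WT, Dicer cKO and Drosha cKO males, and miR-292b-5p had 1, 3, 0 and 1. Both lie opposite plus-strand hairpins, and the sources used here do not state whether the counting used strand.

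**Figure D5:**
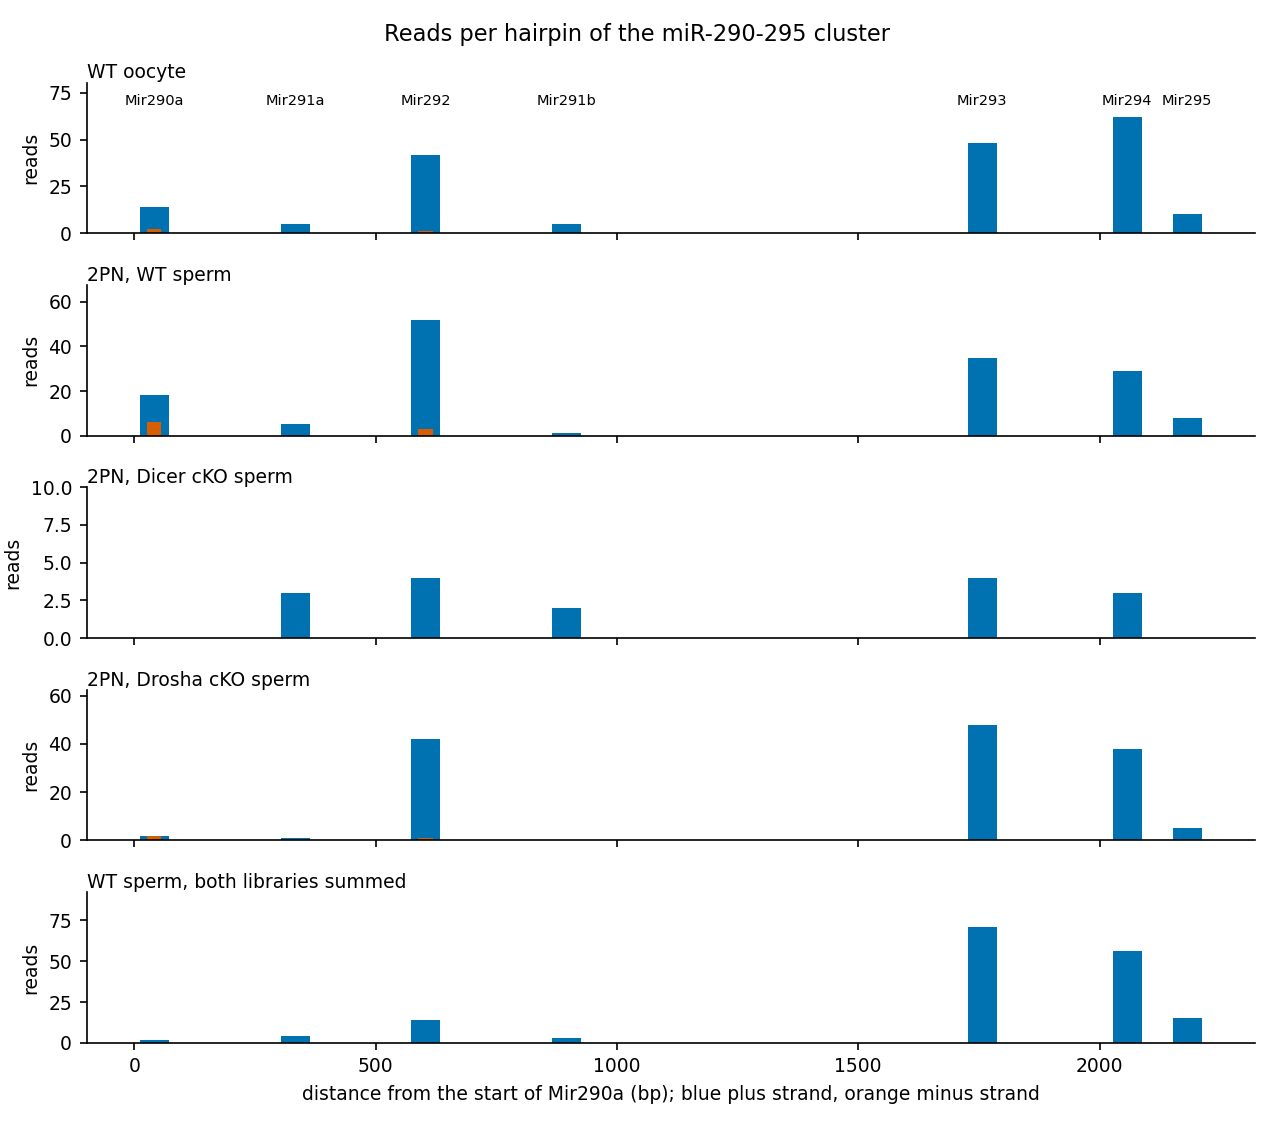
Reads per hairpin, drawn at each hairpin's centre as distance in bp from the start of Mir290a, in the oocyte, the 3 2PN libraries and the summed WT sperm libraries, with its own read axis in each panel. Mir292, Mir293 and Mir294 lead in the oocyte and in the 2PN libraries from WT and Drosha cKO sperm, whereas Mir293 and Mir294 lead in WT sperm.

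Names of Mir292 arms split by kind of library, which limits comparisons of this hairpin. miR-292-3p had 14 reads in sperm libraries and 0 in oocyte and 2PN libraries, whereas miR-292a-3p had 0 and 133. The same held for all 5 pairs of plain and "a" names in the table, miR-142-5p among them (492 and 0 reads, against 0 and 1 for miR-142a-5p). The 5 arms chosen here have reads under 1 name in both kinds of library.

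The remaining rows were sparse. miR-290a-5p had 0 and 2 reads in WT sperm and 14 in the oocyte. miR-294-5p had 3 and 2 reads in WT sperm, 11 in the oocyte and 8, 1 and 5 in the 2PN libraries in the same order. miR-293-5p had 0 and 7 reads in WT sperm and 1 in the oocyte. miR-295-5p had at most 3 reads in any library, miR-291b-3p had 2 reads, both in WT sperm replicate 2, and miR-292a-5p had at most 3. miR-292-5p had 4 reads, all in WT sperm replicate 2.

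Other miRNAs that share a seed with the 5 arms were looked up by sequence. Rows without a matched sequence, miR-302a-3p among them, were not searched. Among the 1333 miRNA rows matched, the 2 rows with exactly the same bases 2 to 8 were miR-291b-5p and miR-302d-3p. miR-291b-5p is an arm of the cluster that differs from miR-291a-5p at 2 of 22 bases.
mmu-miR-291b-5p: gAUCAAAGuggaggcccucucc
mmu-miR-302d-3p: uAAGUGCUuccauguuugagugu
miR-291b-5p had 5 reads in the oocyte and 1, 2 and 0 in the 2PN libraries in the same order, and 1 read in all sperm libraries together. miR-302d-3p belongs to the miR-302 and miR-367 cluster, another group known from pluripotent cells, and had 10 reads in the 11 libraries together. None of the 7 rows of the miR-302 and miR-367 cluster passed the filter. Of the rest, miR-302c-3p had 7 reads in all, miR-367-5p had 4 and miR-302b-5p had 2.

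The miR-17 family carries AAGUGC shifted by one base and is shown for comparison, with bases 2 to 8 in capitals. Its members promote proliferation in many tissues.
mmu-miR-20a-5p: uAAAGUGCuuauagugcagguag
mmu-miR-93-5p: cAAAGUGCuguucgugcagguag
Of the 8 matched rows outside the cluster with the motif in bases 2 to 8, 4 passed the filter. In Dicer cKO sperm 2 of these were called lower. On the log2 scale miR-20a-5p fell by 2.86 (SE 0.550, edgeR adjusted p = 0.000693), and miR-93-5p fell by 3.23 (SE 0.572, adjusted p = 0.000408). In Drosha cKO sperm 3 fell: miR-20a-5p fell by 3.38, miR-93-5p fell by 3.50 and miR-17-5p fell by 2.13. miR-106b-5p had log2 values of 1.42 and 0.66 in the comparisons and did not pass in either (edgeR adjusted p = 0.0671 and 0.333).

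Among rows matched to a sequence, the source of AAGUGC reads differed between sperm and oocyte. In WT sperm 3.57% and 4.12% of listed reads carried the motif in bases 2 to 8, and the cluster gave 0.726% and 0.453% of those reads, since miR-20a-5p alone had 1289 and 6661. In the oocyte 1.32% of listed reads carried it, and the cluster gave 82.2% of them (60 of 73 reads, exact interval 71.5% to 90.2%). In the 2PN library from WT sperm the cluster gave 80.6% (29 of 36 reads, interval 64.0% to 91.8%).

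In the 2PN library from Drosha cKO sperm the cluster gave 49.4% (38 of 77 reads, interval 37.8% to 61.0%), below the interval from WT sperm. The reads from outside the cluster there were mainly of miR-106b-5p, with 30 reads, against 3 in the 2PN library from WT sperm. In the 2PN library from Dicer cKO sperm only 3 reads of matched rows carried the motif, 2 of them from the cluster. These counts leave out miR-292a-3p and miR-292-3p, for which no sequence was matched.

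Rows outside the cluster were ranked by how like their level across the 11 libraries was to the summed 5 arms. The measure was the Pearson correlation of log2(CPM + 10), among 316 rows with at least 50 reads. Highest were miR-3472 (r = 0.929), miR-195a-5p (r = 0.929), miR-30c-5p (r = 0.927), miR-376b-3p (r = 0.917) and miR-25-3p (r = 0.916). The libraries share their kind and depth, and these values are a description. miR-376b-3p had 2 reads in sperm and 140 in oocyte and 2PN libraries. miR-30c-5p was the most abundant row of the oocyte and of each 2PN library.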

How the data were processed

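The authors deposited 1 table of raw read counts per small RNA and, per the file headers, RPM values for the same 11 libraries. The submitters' processing notes name Bowtie and mm10, with no version; the sources used here do not state how reads matching several miRNAs were assigned. Counts divided by RPM gave the authors' divisor, the same for all rows of a library. The design text names an Ion Torrent Proton, and the protocol names Illumina library preparation.

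CPM, shares and exact intervals were computed from the deposited counts in Python 3.11.15 with scipy 1.17.1. Sperm groups were compared with edgeR 4.0.16 (glmQLFit, TMM, filterByExpr, threshold 0.05), tested on simulated data. Its fitted log2 changes are shrunken by a small prior count. DESeq2 1.42.0 and limma 3.58.1 were alternatives. Oocyte and 2PN groups have 1 library each and no test. The 5 arms, the other rows named (every cluster row, up to 4 most abundant of each seed list and of the miR-302 and miR-367 list, 5 most alike) and all marker lists were chosen with earlier results of these data known. Of the 1592 miRNA rows, 1333 matched a RefSeq sequence by name. miR-302a-3p and 3 rows of Mir292 were among those without a match.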

Additional observations from a re-analysis of the deposited data

How the results depend on the processing

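Both arms tested, miR-293-3p and miR-294-3p, kept their direction under every alternative that gave them a value in the comparisons with WT sperm. The adjusted p of miR-294-3p in Dicer cKO sperm ran from 0.000338 to 0.0554. Leaving out single libraries gave 1 to 2 arms called there; in Drosha cKO sperm it gave 2. A group left with 1 library was assumed to vary like the others. With only the 2 groups compared in the Drosha cKO fit, 1 arm was tested and called, since miR-294-3p failed the filter. Without the filter 112 rows were called there in place of 185. Between the knockouts 0 rows were called, and 11 with library totals alone, 1 with the authors' divisor, 1 without the filter, 4 at 10 CPM in 2 libraries, 18 with DESeq2, 2 with limma, 31 with only the 2 groups and 0 to 36 without single libraries; the cause was not tested. miR-294-3p turned from -0.34 to 0.21 with DESeq2 and to 2.11 without Dicer cKO replicate 1, in a range of -2.71 to 2.11 without single libraries.

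The replicate block gave 175, 184 and 8 rows called in the Dicer cKO, Drosha cKO and direct comparisons, and 2, 2 and 0 arms. Deviations from the group mean correlated at 0.18 to 0.31 between libraries of the same replicate number in different groups. There were 2 such pairs in each comparison, and the labels do not tie them. For WT and Dicer cKO sperm, with 2 libraries each, both pairs give the same value by construction.

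Scaling shifted the median log2 change over all rows: from 0.03 to 0.60 with library totals alone and 0.88 with the authors' divisor in Dicer cKO sperm, and from 0.05 to 1.04 and -0.04 in Drosha cKO sperm. Calls were 104 lower and 54 higher in Dicer cKO sperm, and 91 and 101 with library totals alone. In Drosha cKO sperm they were 111 and 74, then 89 and 134 with library totals alone and 101 and 23 with the authors' divisor.

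On the authors' divisor the ratio of the summed arms was 4.48 for oocyte to WT sperm (an alternative chosen after seeing the data, as was the next but one), 0.912 for 2PN of Drosha cKO to 2PN of WT sperm, 0.0837 for 2PN of Dicer cKO to 2PN of Drosha cKO sperm, 0.0616 for 2PN of Dicer cKO sperm to oocyte and 0.736 for 2PN of Drosha cKO sperm to oocyte. Counting only miRNA reads moved no share or ratio beyond its interval.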
